A study of Mus musculus with 12 samples.

Results

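The genes described here are 10 known targets of bone morphogenetic protein (BMP) signalling, Id1, Id2, Id3, Id4, Smad6, Smad7, Smad9, Hey1, Atoh8 and Bambi, read in adipose tissue of mice with and without the sorting receptor LR11. They were chosen by name, as genes that BMP receptors and their Smads switch on in many cell types, and each had 1 probe on the array. They are 10 of the 20660 named genes on the array, and 8 of them, all but Smad9 and Bambi, were among the 14709 named genes whose signal stood well above background in at least 1 group. The question was whether loss of LR11 raises the transcriptional output of BMP signalling.

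Gene expression was measured on 12 one-colour arrays, 3 for each of 4 groups: subcutaneous white adipose tissue (scWAT) and brown adipose tissue (BAT) of wild-type (WT) mice and of mice lacking LR11 (Lr11-/-). All mice were males of the C57Bl6/J background, the age given is 12 weeks, and the controls were WT littermates. Every group received a high-fat diet (HFD) with 60% of calories from fat. The sample descriptions give 4 weeks on this diet, while the treatment note of the same samples has it begin at weaning. The deletion is carried by the whole animal, so that the cell in which LR11 is missing cannot be assigned. No untreated or chow-fed group was analysed here.

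BMP ligands bind pairs of type I and type II serine/threonine kinase receptors, which phosphorylate Smad1, Smad5 and Smad9. These join Smad4, enter the nucleus and raise transcription of a small set of immediate targets. Among these targets the inhibitors Smad6, Smad7 and Bambi act back on the receptors, while the Id proteins bind basic helix-loop-helix factors and keep them off DNA. In adipose tissue BMP signalling is known for its part in committing precursors to the adipocyte lineage and, through BMP7 and BMP8B, in brown fat differentiation and thermogenesis.

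Promoter sequence was read for 6 of the 10 genes, Id2, Id3, Id4, Smad6, Smad9 and Atoh8, from RefSeq on build GRCm38.p6. The promoters of Id1, Smad7, Hey1 and Bambi were not read here. The 250 bases before the transcription start are shown for Id2, Id4 and Smad6, the genes among these 6 whose unadjusted p was under 0.05 in scWAT. They are also shown for Id3, whose p was not. Each is written 5′ to 3′ on the strand of the gene. Capitals mark GGCGCC and GGAGCC, the GC-rich elements bound by BMP-activated Smads, and CAGAC, the Smad-binding element, or the complements of GGAGCC and CAGAC. The stretches lie at chr12:25096093-25096342 (minus strand) for Id2, chr13:48260866-48261115 (plus strand) for Id4, chr9:64022060-64022309 (minus strand) for Smad6 and chr4:136143572-136143821 (plus strand) for Id3.
Id2: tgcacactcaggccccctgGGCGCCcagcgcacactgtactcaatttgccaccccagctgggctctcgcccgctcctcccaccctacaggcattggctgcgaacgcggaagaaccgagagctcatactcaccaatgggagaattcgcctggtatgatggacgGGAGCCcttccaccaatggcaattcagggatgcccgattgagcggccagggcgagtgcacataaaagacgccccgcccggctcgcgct
Id4: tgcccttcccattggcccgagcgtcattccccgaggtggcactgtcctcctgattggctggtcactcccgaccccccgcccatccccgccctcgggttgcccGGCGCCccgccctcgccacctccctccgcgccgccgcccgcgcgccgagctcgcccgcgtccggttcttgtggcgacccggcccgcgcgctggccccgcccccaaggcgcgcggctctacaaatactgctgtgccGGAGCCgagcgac
Smad6: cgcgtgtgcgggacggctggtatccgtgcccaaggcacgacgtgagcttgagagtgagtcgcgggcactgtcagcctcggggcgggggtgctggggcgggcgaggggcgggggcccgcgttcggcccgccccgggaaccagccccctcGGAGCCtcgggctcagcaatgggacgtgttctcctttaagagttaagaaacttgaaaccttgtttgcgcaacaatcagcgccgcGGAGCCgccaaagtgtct
Id3: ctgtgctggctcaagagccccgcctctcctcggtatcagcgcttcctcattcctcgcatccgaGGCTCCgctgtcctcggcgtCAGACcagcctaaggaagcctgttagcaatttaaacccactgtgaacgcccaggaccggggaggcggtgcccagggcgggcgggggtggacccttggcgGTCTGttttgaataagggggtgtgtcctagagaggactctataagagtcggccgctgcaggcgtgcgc
Counting back from the start, Id2 held GGCGCC at -231 and GGAGCC at -88, and Id4 held the same pair at -148 and -13. Smad6 held GGAGCC at -102 and again at -18, and no GGCGCC in this window. Id3 held GGAGCC on the other strand at -187, and CAGAC at -167 and, on the other strand, at -68. Over the 6 genes, GGCGCC was found in 3, GGAGCC in 5 and CAGAC in 1, while Atoh8 had none of them. Of 32851 promoter stretches of the same length, 9.59% held GGCGCC, 26.0% GGAGCC and 42.2% CAGAC on either strand, so that these letters are common, and a match is a description and not a binding site. No overlap between motifs was found in the 6 stretches.

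Levels are given below as log2 signal minus the 75th percentile of that array, so that 0 is the brightness exceeded by 1 probe in 4, and a difference of 1 is a doubling. They are compared within a gene and never between genes, since probes differ in brightness. The targeted gene, Sorl1, which encodes LR11, was at 0.91 to 1.15 on the WT scWAT arrays and at -3.57 to -2.87 on the Lr11-/- scWAT arrays, and fell by 3.63 on the log2 scale in BAT (limma, adjusted p = 0.0063 in scWAT and 0.0319 in BAT). All 12 arrays therefore matched their genotype labels. The arrays differed in cell content, however. All 11 skeletal muscle markers were well above background on 5 arrays, WT scWAT replicate 3, Lr11-/- scWAT replicate 1, WT BAT replicates 1 and 3 and Lr11-/- BAT replicate 1, with summed levels of 989 to 5629 against 1.64 to 6.19 on the other 7. WT scWAT replicate 1 had the highest summed level of the 12 endothelial markers, 269 against 110.2 to 222 on the other 11 arrays. Replicate 1 of each group belonged to a first array series and replicates 2 and 3 to a second, run on another slide and scanned on another day. In the first series the scWAT arrays lay on 1 slide and the BAT arrays on another, scanned on different days. Depot cannot be told apart from slide and scan day within that series. The labels do not say that replicates were separate animals, so the p-values measure the spread between these arrays.

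No BMP/Smad target gene passed the test for a rise in Lr11-/- scWAT. Of the 8 tested genes, 0 were called higher and 1, Smad7, was called lower at an adjusted p under 0.05 (limma over 32120 probes, of which 5.27% were called, 1091 higher and 601 lower, or 303 higher and 535 lower with no scaling). Before adjustment, 0 of the 8 were higher and 4, Id2, Id4, Smad6 and Smad7, were lower at p under 0.05. The same test gave 27.6% of all probes, both directions counted together. Mean levels were lower in Lr11-/- scWAT for 5 genes and higher for 3, and the median difference over the 8 was -0.85, with 0.04 over all tested probes. The arrays measure tissue, in which fewer cells of a type and less RNA per cell cannot be told apart.

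Smad7, an inhibitory Smad that occupies the receptors and recruits ubiquitin ligases to them, was at 0.58, -0.08 and 0.27 on the WT scWAT arrays and at -0.64, -1.55 and -1.13 on the Lr11-/- arrays. The groups did not overlap. The difference was -1.37 on the log2 scale (SE 0.28, 95% CI -1.99 to -0.74, 2.58-fold lower in Lr11-/- scWAT, limma adjusted p = 0.0378). Smad7 was lower in Lr11-/- scWAT in all 28 other settings that were tried, by 1.15 to 1.77 in size, but passed the threshold in 14 of the 27 that gave a test. It was not called when only the 6 scWAT arrays were fitted, where no probe was (adjusted p = 0.315), with median scaling (0.0576), with no scaling (0.06) or with no filter on dim probes (0.0735). Dropping 1 array also ended the call, whether Lr11-/- scWAT replicate 2 (0.153) or 3 (0.163), the second WT scWAT array (0.0551) or any of the 6 BAT arrays (0.0561 to 0.0678). Without the 5 arrays with skeletal muscle markers the difference was -1.59 (adjusted p = 0.0425), and on the second array series alone it was -1.44 (0.0187).

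Smad6, the inhibitory Smad that acts mainly on the BMP branch, was at 1.20, -0.39 and 0.32 on the WT scWAT arrays. On the Lr11-/- scWAT arrays it was at -0.18, -1.08 and -1.24. The lowest WT array lay below the highest Lr11-/- array, so the groups overlapped. The difference was -1.21 (SE 0.41, 95% CI -2.12 to -0.30, adjusted p = 0.0959). It became a call in 4 of 27 settings, among them the slide as a block (adjusted p = 0.0417) and the second array series alone (0.0348).

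Among the Id genes, Id4 and Id2 were lower on average in Lr11-/- scWAT, and Id1 and Id3 were not. Id4 was at -0.05, -2.23 and -1.02 on the WT arrays and at -1.97, -2.84 and -2.49 on the Lr11-/- arrays, a difference of -1.33 (SE 0.46, 95% CI -2.34 to -0.32, adjusted p = 0.0977). WT replicate 2 lay within the range of the Lr11-/- arrays. Id2 was at 1.31, 1.79 and 0.010 on the WT arrays and at 0.07, 0.10 and -0.50 on the Lr11-/- arrays, a difference of -1.15 (SE 0.44, adjusted p = 0.128). Here WT replicate 3, one of the arrays with skeletal muscle markers, lay below 2 of the 3 Lr11-/- arrays, and without it the difference was -1.66 (adjusted p = 0.0188).

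Id1, the most widely used readout of BMP activity, was at 3.21, 1.63 and 3.20 in WT scWAT and at 3.46, 2.95 and 3.35 in Lr11-/- scWAT. Of the Lr11-/- values 2 lay just above all WT values, and WT replicate 2 lay below the rest. The difference was 0.57 (SE 0.40, 95% CI -0.31 to 1.46, adjusted p = 0.377), an interval that holds both a small fall and a rise of more than 2-fold. Id1 was on the higher side in all 28 other settings and passed the threshold in 0 of 27. Id3 was at 3.99, 2.97 and 2.76 in WT scWAT and at 2.46, 3.65 and 3.76 in Lr11-/- scWAT, with a difference of 0.05 (SE 0.48, 95% CI -1.02 to 1.12, adjusted p = 0.957). Its sign turned with the scaling: the difference was -0.16 after quantile normalization and -0.19 with no scaling.

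Hey1 and Atoh8 encode basic helix-loop-helix transcription factors, of which Hey1 is also a target of Notch. Hey1 was at 1.14, -0.03 and -0.02 in WT scWAT and at -0.30, -0.09 and -0.18 in Lr11-/- scWAT. The groups did not overlap, but the gap between them was small and the difference of -0.56 (SE 0.31, adjusted p = 0.271) was -0.17 without WT replicate 1. Atoh8 was at -2.36, -2.61 and -1.40 in WT and at -1.71, -2.03 and -2.27 in Lr11-/- scWAT. It differed by 0.12 (SE 0.37, 95% CI -0.70 to 0.94, adjusted p = 0.863), and this was -0.13 with no scaling. In scWAT 2 of the 8 genes, Smad7 and Hey1, were lower without overlap and 0 were higher, beside 8.76% of all tested probes lower and 11.7% higher without overlap.

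**Figure D1:**
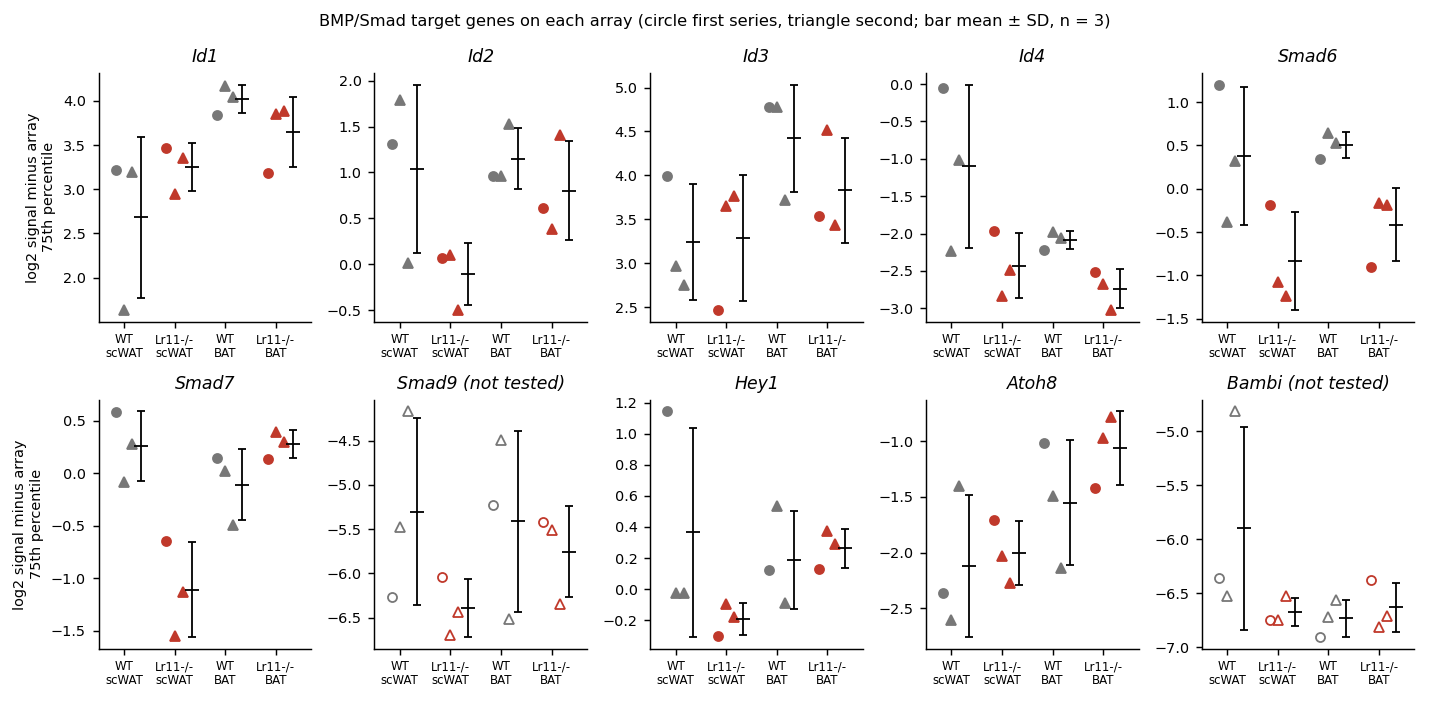
Each panel plots 1 gene, with log2 signal minus the array's 75th percentile on the y axis and the 4 groups on the x axis; circles are arrays of the first series, triangles of the second, open symbols are genes that were not tested, and bars are the mean ± SD (n = 3). The 3 Lr11-/- scWAT arrays of Smad7 lie between -1.55 and -0.64, below the WT scWAT arrays at -0.08 to 0.58, while in BAT the same gene lies between -0.49 and 0.40 in both genotypes.

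WT scWAT replicate 1, the array with the highest endothelial markers, held the highest of the 3 WT values for Id1, Id3, Id4, Smad6, Smad7 and Hey1. Without it the median difference over the 8 genes was -0.48 in place of -0.85, and the differences were -0.81 for Id4 and -0.80 for Smad6. Smad7 was at -1.21 without it (adjusted p = 0.0344). Over the endothelial list, 0 of 12 genes were called in scWAT, 8 were lower on average and 4 higher in Lr11-/- scWAT, and the median difference was -0.19. The stromal list moved more: all 8 genes were lower on average, 2 of them were called, and the summed level was 421 to 1367 in WT and 133 to 316 in Lr11-/- scWAT. The 8 mural markers summed to 89.6 to 109.7 in WT and 45.1 to 84.4 in Lr11-/- scWAT, with 0 called. One by one they were split, with 4 lower and 4 higher on average in Lr11-/- scWAT and a median difference of -0.09. The part of these cell types in the lower Smad7 was not tested.

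WT scWAT replicate 2 also stood apart. Its adipocyte markers summed to 436, beside 1538 to 2750 on the other 11 arrays, and its macrophage markers to 289.5, beside 22.9 to 81.3. It also held the highest stromal sum and the lowest of the 3 WT values for Id1, Id4, Smad6, Smad7, Hey1 and Atoh8. Without it Id4 was called lower in Lr11-/- scWAT (-1.90, limma adjusted p = 0.0461), the Id1 difference was 0.05 in place of 0.57, Id3 and Atoh8 turned to -0.08 and -0.12, and the median over the 8 genes was -0.76. Between the genotypes, 7 of 8 adipocyte markers were higher on average in Lr11-/- scWAT (median 1.44) and 8 of 8 macrophage markers lower (median -0.96), with 0 called in either list. These medians include WT scWAT replicate 2. The adipocyte markers averaged 7.23, 3.46 and 5.98 on the WT scWAT arrays and 6.31 to 7.11 on the Lr11-/- scWAT arrays. The macrophage markers averaged 2.74, 4.77 and 1.46 on the WT arrays and 1.21 to 1.74 on the Lr11-/- arrays. The part of these cell types in the differences of the target genes was not tested.

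Brown adipocyte markers were also higher on average in Lr11-/- scWAT, but unevenly. Their summed level was 470 on replicate 1, beside 3541 on replicate 2 and 3843 on replicate 3. Ucp1, the uncoupling protein of brown fat, was at -2.08 ± 4.33 (SD, n = 3) in WT scWAT, where 2 of 3 arrays were well above background, and at 8.06 ± 3.19 (SD, n = 3) in Lr11-/- scWAT (limma, adjusted p = 0.0326). Of the 10 brown markers 6 were called higher and the summed level was 2.43 to 278 in WT and 470 to 3843 in Lr11-/- scWAT. Within the Lr11-/- scWAT group the array with the lowest brown sum, replicate 1, was the highest for Smad6, Smad7, Id4, Id1 and Atoh8. For Id3 and Hey1 it was the lowest, and for Id2 it lay between the other Lr11-/- scWAT arrays. It was also the array with skeletal muscle markers and with the highest epithelial markers, which summed to 60.2. WT scWAT replicate 3 came next, and the other 10 arrays read 0.511 to 0.97. The order of the arrays was not the same throughout. WT scWAT replicate 3 held more brown signal (278) than replicate 2 (2.43) and was also higher for Smad7, Smad6, Id4, Id1 and Atoh8. It was lower than replicate 2 for Id2 and Id3, and nearly equal to it for Hey1. WT scWAT replicate 3, like Lr11-/- scWAT replicate 1, carried skeletal muscle markers, and the part of muscle RNA in their brown sums was not tested. All 6 BAT arrays held brown signal of 2799 or above with Smad7 at -0.49 to 0.40. The relation between the brown markers and the target genes was not tested.

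**Figure D2:**
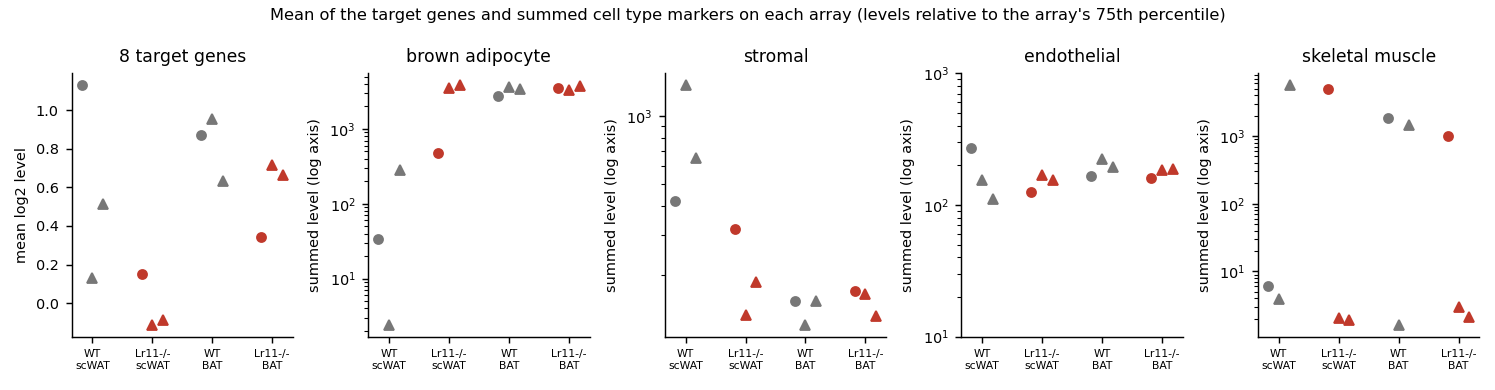
The left panel plots the mean log2 level of the 8 tested target genes on each array, and the others plot, on log axes, the summed level of brown adipocyte, stromal, endothelial and skeletal muscle markers relative to the array's 75th percentile; circles are the first array series and triangles the second. The target genes average -0.11 to 0.15 in Lr11-/- scWAT and 0.13 to 1.13 in WT scWAT, and the muscle markers separate 5 arrays at 989 or above from 7 at 6.19 or below.

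In BAT no target gene was called in either direction (limma, adjusted p = 1 for all 8), beside 0.0187% of all probes, 6 in number. Before adjustment 1 of the 8, Smad6, was lower at p under 0.05, with 2.12% of all probes past that mark in either direction. Of the 8, 5 were lower on average in Lr11-/- BAT and 3 higher, and the median difference was -0.36, beside 0.04 over all tested probes. Smad6 was at 0.34, 0.64 and 0.53 on the WT BAT arrays and at -0.90, -0.16 and -0.18 on the Lr11-/- BAT arrays, without overlap. Its difference was -0.92 (SE 0.41, 95% CI -1.83 to -0.01), close in size to the -1.21 of scWAT, and it was lower in all 28 other settings.

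Id4 was the other gene whose genotypes did not overlap in BAT, at -2.22, -1.98 and -2.06 in WT and at -2.51, -2.67 and -3.03 in Lr11-/- mice, with a difference of -0.65 (SE 0.46, 95% CI -1.66 to 0.36). Thus 2 of the 8 genes were lower and 0 higher without overlap, beside 4.65% of all probes lower and 7.39% higher. Id1 was at 3.85, 4.17 and 4.05 in WT and at 3.19, 3.86 and 3.89 in Lr11-/- BAT, a difference of -0.38 (95% CI -1.26 to 0.51). Smad7, called lower in scWAT, was at 0.15, 0.02 and -0.49 in WT and at 0.13, 0.40 and 0.29 in Lr11-/- BAT, a difference of 0.38 (SE 0.28, 95% CI -0.24 to 1.01). The ranges overlapped.

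The remaining differences in BAT were -0.59 for Id3 (95% CI -1.67 to 0.48), -0.35 for Id2 (-1.33 to 0.63), 0.49 for Atoh8 (-0.33 to 1.31) and 0.07 for Hey1 (-0.61 to 0.76). All these intervals include 0, and each reaches a change of 1.5-fold in at least 1 direction. That of Id3 ends short of a 1.5-fold rise, and that of Atoh8 short of a 1.5-fold fall. The summed levels of the brown markers overlapped, at 2799 to 3636 in WT BAT and 3310 to 3777 in Lr11-/- BAT. The sign of the Hey1 difference turned to -0.20 without the 5 arrays with skeletal muscle markers.

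**Figure D3:**
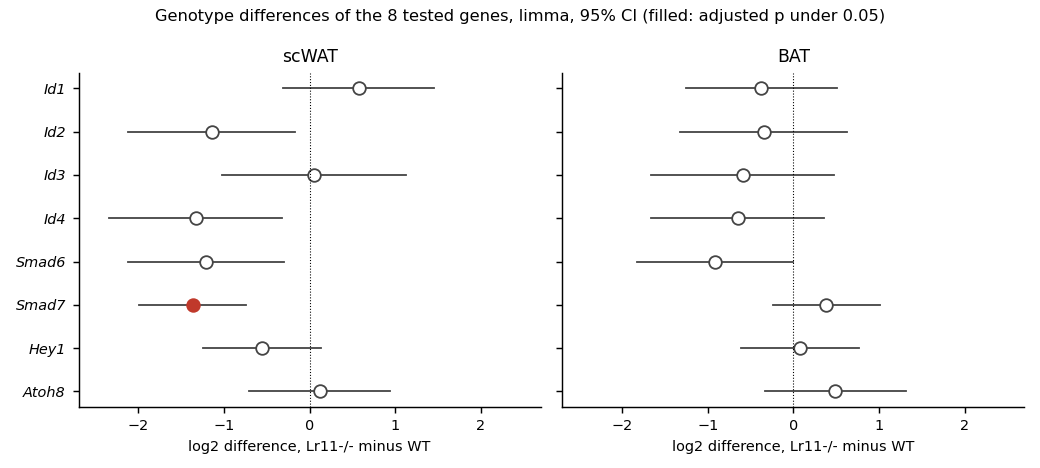
Points are the limma log2 differences, Lr11-/- minus WT, of the 8 tested genes in scWAT (left) and BAT (right) with their 95% confidence intervals on the x axis; a filled point has an adjusted p under 0.05. Smad7 in scWAT, at -1.37, is the filled point, and Smad6 lies to the left of 0 in both tissues.

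The genotype effect of scWAT minus that of BAT was called for 0 of the 8 genes and for 0 of 32120 probes (percent called, 0), with 11% of probes and 1 of the 8 genes at an unadjusted p under 0.05. That gene was Smad7, with a difference of effects of -1.75 (SE 0.40, 95% CI -2.63 to -0.87, unadjusted p = 0.00118, adjusted p = 0.322), so the fall of Smad7 in scWAT is not shown to differ from its change in BAT. The adjusted p ranged from 0.0237 to 0.759 over 26 settings and passed the threshold in 2, array weights and leaving out Lr11-/- scWAT replicate 1. For Smad6 the difference of effects was -0.29 (95% CI -1.58 to 0.99), and for Id1 it was 0.95 (95% CI -0.30 to 2.20, adjusted p = 0.543).

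Between the depots, Id1 was higher in BAT than in scWAT of WT mice, by 1.34 (SE 0.40, 2.53-fold, limma adjusted p = 0.0342), and was the 1 gene of the 8 higher in BAT without overlap, beside 24.3% of all probes. It was the 1 gene of the 8 called, where 24.8% of all probes were called between the WT depots, and the call held in 15 of 27 settings. It was not called without WT scWAT replicate 2, where the difference was 0.81 (adjusted p = 0.0634), nor without any single WT BAT array (0.0729 to 0.106). Id3 was higher by 1.19 (SE 0.48, adjusted p = 0.0946) and Id4 differed by -0.99 (SE 0.46, adjusted p = 0.132), and neither was called. In Lr11-/- mice 0 of the 8 were called between the depots, beside 0.0405% of all probes. Smad7 was higher there in BAT by 1.38 (SE 0.28, adjusted p = 0.191), and Id2, Hey1 and Atoh8 were also higher in BAT, by 0.91, 0.45 and 0.94. These 4 of the 8 genes were higher without overlap, beside 14% of all probes. The genotype and depot comparisons use the same arrays, so the low Smad7 level of Lr11-/- scWAT enters both.

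Smad9, the third BMP receptor-activated Smad, and Bambi, a pseudoreceptor that lacks the kinase domain, were too dim to test. Smad9 was well above background on 1 of 12 arrays, a WT scWAT array, at -4.17, and read -6.70 to -4.50 on the others. Bambi was well above background on 0 of 12 arrays, at -6.91 to -4.82. For both genes no fold is given.

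The targets shared part of their variation over the 12 arrays, which also share group, depot and slide, so the following correlations are descriptions. Smad6 varied with Id4 (Pearson r = 0.718), Smad7 (0.638) and Hey1 (0.64), and Hey1 with Smad7 (0.655). Id1 varied with Atoh8 (0.611) and Id3 (0.53), and hardly with Id2 (-0.101) or Id4 (-0.092). The 8 genes thus did not rise and fall as 1 block. Among 14701 named genes, those most like Smad7 over the arrays were Clic4 (r = 0.935), Chst8 (0.865) and Rflna (0.864). Those most like Smad6 were Nfrkb (0.94), Cmtm8 (0.889) and Map6 (0.881), and those most like Id1 were Baiap2l2 (0.957) and Fundc2 (0.95). For Id4 they were Slc5a7 (0.965), Gucy1a1 (0.95) and Mest (0.947).

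The genes upstream of the targets were read from a list of 47, of which 42 were tested. In scWAT 4 were called, 2 higher and 2 lower, 14 passed an unadjusted p under 0.05, and the median difference was -0.38. These are 9.52% and 33.3% of the list, beside the 5.27% and 27.6% of all probes. In BAT 0 of 42 were called and 0 passed an unadjusted p under 0.05 (median 0.04), beside 0.0187% and 2.12% of all probes. The scWAT count was 0 in each fit that left out any WT BAT array, Lr11-/- BAT replicate 1 or 3, the second WT scWAT array, or replicate 2 or 3 of Lr11-/- scWAT. It was also 0 with no filter on dim probes and with only the scWAT arrays fitted. It was 1 without Lr11-/- BAT replicate 2 and 9 without the first WT scWAT array, and rose to 12 on the second series alone or when replicate 1 of Lr11-/- scWAT was dropped.

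Of the 12 ligands tested (a list that includes Bmp1, a protease that cleaves BMP antagonists), Bmp8b, a ligand that raises the thermogenic response of brown fat, was the 1 called. It read -7.01, -6.43 and -6.54 in WT scWAT, well above background on 0 of 3 arrays, and -5.32, -0.29 and -2.29 in Lr11-/- scWAT, with 2 of 3 arrays well above background. On the mean of its arrays, Lr11-/- scWAT held at least 4.57-fold more signal (limma adjusted p = 0.0449). For this bound each dim WT array was set to its lowest signal that the scanner software separated from background. Lr11-/- scWAT replicate 1, at -5.32, was not well above background either and kept its value, so the bound is not one for each array. Bmp2 was lower in Lr11-/- mice without overlap in both depots, by -0.71 in scWAT (adjusted p = 0.109) and -0.41 in BAT (adjusted p = 1), and was not called. Bmp8a, a closely similar gene with a probe of its own, was at 0.01 to 1.34 in WT and at 0.12 to 0.57 in Lr11-/- scWAT, and binding of its RNA to the Bmp8b probe was not tested. On average 10 of the 12 ligands were lower in Lr11-/- scWAT.

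Among 12 receptors and co-receptors tested, Rgma, a membrane-anchored BMP co-receptor, was called. It was at 0.84, -0.44 and 1.11 in WT scWAT and at 2.28, 4.38 and 4.86 in Lr11-/- scWAT, higher by 3.34 on the log2 scale (SE 0.59, adjusted p = 0.0296), and at 4.21 to 4.66 in BAT of both genotypes. The type I receptors were not called. Bmpr1a differed by -0.76 in scWAT (95% CI -1.59 to 0.07, adjusted p = 0.216) and by 0.04 in BAT. Bmpr1b, the other classical type I receptor, was at -4.27, -1.88 and -2.46 in WT scWAT, well above background on all 3 arrays. In Lr11-/- scWAT it read -2.32, -6.62 and -6.40, well above background on 1 of 3 arrays, so no size is given. It was not called (adjusted p = 0.218) and was well above background on 0 of 6 BAT arrays.

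Fstl3, a secreted antagonist that binds activin and some BMPs, was the 1 antagonist of 11 called. It was at 1.37, 1.06 and 1.49 in WT scWAT and at -1.17, -0.10 and -0.15 in Lr11-/- scWAT, a difference of -1.78 (SE 0.33, adjusted p = 0.0297). Smad1, which carries the BMP signal to the nucleus, was the 1 called of 7 Smads and Smurf ubiquitin ligases. It was at -0.75, -0.19 and -0.55 in WT and at -1.63, -1.57 and -1.71 in Lr11-/- scWAT, a difference of -1.14 (SE 0.23, adjusted p = 0.0354), without overlap. Its other tested probe differed by -0.44 (adjusted p = 0.304), so that the size of the Smad1 difference depends on the probe. In BAT, Smad1 differed by -0.04.

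Smad7 is induced by TGF-beta as well as by BMP. A list of 10 TGF-beta target genes was also read, of which 9 are reported here. In scWAT 0 of these 9 were called (smallest limma adjusted p = 0.0516), beside 5.27% of all probes. At an unadjusted p under 0.05, 4 were lower and 0 higher, the same test giving 27.6% of all probes, both directions counted together. Without overlap, 3 were lower and 0 higher, beside 8.76% of all probes lower and 11.7% higher. The median difference was -0.80, beside -0.85 for the 8 BMP/Smad targets. In BAT 0 of the 9 were called or passed an unadjusted p under 0.05, beside 0.0187% and 2.12% of all probes. The median there was -0.28, beside -0.36 for the BMP/Smad targets. Of 4 tested Notch targets 0 were called in scWAT and all 4 were lower on average, with a median of -0.63. In BAT 0 of the 4 were called, 3 were lower on average and 1 higher, and the median was -0.73.

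**Figure D4:**
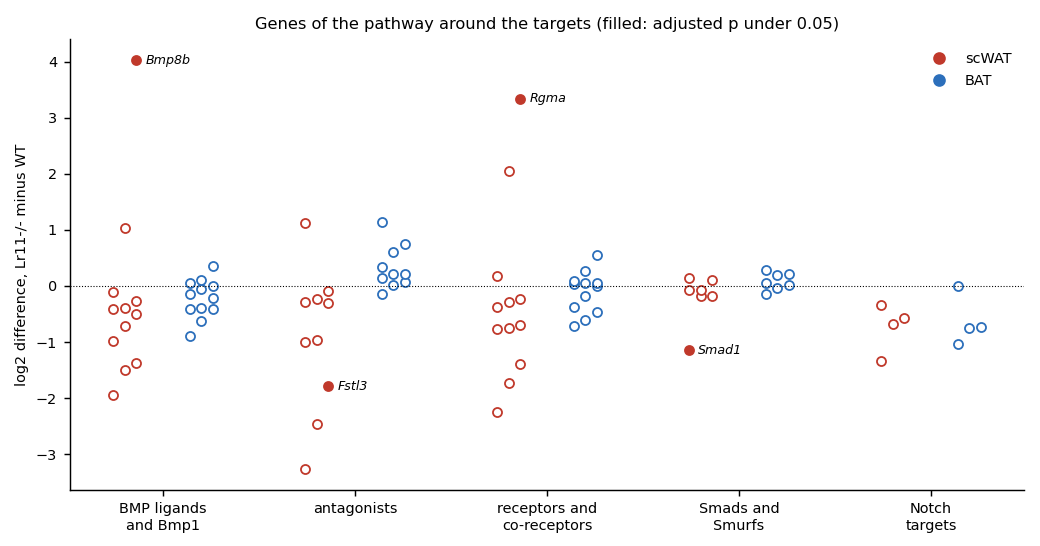
Each point is 1 gene, with the limma log2 difference Lr11-/- minus WT on the y axis and the gene list on the x axis, red for scWAT and blue for BAT; filled points have an adjusted p under 0.05 and are named. Rgma (3.34) and Bmp8b lie above 0, the latter at a fitted value against WT arrays that were not well above background, for which the at least 4.57-fold bound is the size given. Fstl3 (-1.78) and Smad1 (-1.14) lie below 0, and no BAT point is filled.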

How the data were processed

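RNA of scWAT and BAT was hybridised to 12 one-colour Agilent mouse arrays. The authors deposited intensity values from Agilent Feature Extraction (version 10.10.1.1 per the file headers), which the software had corrected for background and spatial trend array by array, with no scaling between arrays. These were the files read, and the series table holds the same numbers (largest difference 0). Outlier spots (128 to 181 per array) were left out, log2 was taken, each array's 75th percentile (374 to 632) was subtracted and spots of a probe were averaged. Probes well above background on all 3 arrays of a group, 32120 of 55681, were tested. Symbols came from RefSeq accessions, which named 27235 of 28685 probes that had one, in a gene table of assembly GRCm38.p6. The array was designed on another assembly, so no probe coordinates are given.

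All 12 arrays entered 1 limma fit (3.58.1, R 4.3.3, lmFit and eBayes) with a mean per group, and p-values were adjusted by Benjamini-Hochberg over all tested probes. A gene was read from its brightest tested probe. Precision is limited by the number of arrays and by dim signal. The limma step was run on simulated data with shifts larger than any difference of the target genes. Power for these genes was not tested.

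Groups follow the source and genotype labels. Replicate 1 is the array of the first series and numbers pair nothing. The members, the gene lists and the tests were chosen with earlier results of these data known. Named are the 10 members, Sorl1, Ucp1, pathway genes called in a genotype comparison or without overlap in both depots, Bmp8b, Bmpr1a, Bmpr1b and, per member, the genes with the most similar profile. Other scalings, filters, blocks, weights, array subsets and single arrays left out were tried, and leaving out the 5 arrays with all 11 skeletal muscle markers was chosen after seeing the data. Of the other marker lists, 0 of 8 adipocyte, 8 macrophage, 5 B cell, 6 T cell, 5 skeletal muscle and 4 epithelial genes tested and 1 of 5 Schwann cell genes were called in scWAT. 1 gene of the TGF-beta target list is not reported here.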

Additional observations from a re-analysis of the deposited data

How the results depend on the processing

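No paired analysis was possible because the labels carry no replicate numbers. Smad7 in scWAT and Id1 between the WT depots were the 2 calls among the target genes, and both kept their direction in all 28 settings, while each lost its call in some. In scWAT, Id2, Id4, Smad6, Smad7 and Hey1 stayed lower and Id1 higher in all 28. Of 40 differences (8 genes in 5 comparisons), 8 changed sign in 1 setting or more with a test, each time with an unadjusted p of 0.287 or more. On the first array series alone, which gives no test, 9 of the 40 had the other sign, 1 of them (Id3) between genotypes in scWAT. The limits are 3 arrays a group, skeletal muscle markers on 5 arrays, a call for Smad7 that rests on the spread being pooled over 4 groups, and Smad9 and Bambi near background. Causes of changes below were not tested.

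Numbers of target genes called between genotypes in scWAT (1 here), of pathway genes there (4) and of target genes between WT depots (1), and numbers of probes in the 5 comparisons (1692 for genotype in scWAT, 6 in BAT, 0 for the difference of effects, 7967 between WT depots and 13 between Lr11-/- depots), moved as follows. Quantile normalization left 0 target genes between WT depots. Under median scaling the median difference over all probes was up to 0.202, reached between WT depots (0.068 here). This scaling left 0 target genes and 1093 probes in scWAT, 2 probes in BAT and 8 between Lr11-/- depots. With no scaling the median difference over all probes was -0.203 between genotypes in scWAT (0.042 here). That setting left 0 target genes and 838 probes in scWAT. It also left 0 target genes between WT depots, where the median over the target genes was -0.20 (0.12 here). Normexp left 2 probes in BAT, 1 for the difference of effects, 3 between Lr11-/- depots and 0 target genes between WT depots. With no filter on dim probes, 0 target genes, 0 pathway genes and 151 probes were called in scWAT, 0 probes in BAT and 0 target genes between WT depots. A filter on all 12 arrays left 2 probes in BAT and 0 between Lr11-/- depots. Blocking on the array series left 0 probes in BAT. With the slide as a block, 2 target genes (Smad6 and Smad7) and 911 probes were called in scWAT, 1 probe in BAT and 3990 between WT depots, and the median of the target genes was 0.43 between WT depots and 0.82 between Lr11-/- depots (0.50 here). In the first array series this block coincides with depot.

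On the second array series alone, 2 target genes (Smad6 and Smad7), 12 pathway genes and 7259 probes were called in scWAT, 0 probes in BAT, 890 for the difference of effects, 0 target genes between WT depots and 0 probes between Lr11-/- depots, where the median was 0.85. On the first series alone, with no test, the median was -1.31 in scWAT (-0.85 here) and -0.39 between WT depots, which there lay on different slides. With array weights, 3 target genes (Id4, Smad6 and Smad7), 10 pathway genes and 4040 probes were called in scWAT, 73 probes in BAT, 1 target gene (Smad7) and 1526 probes for the difference of effects, 0 target genes and 5299 probes between WT depots, and 5 target genes and 5454 probes between Lr11-/- depots. With trend and robust estimation 3 probes were called in BAT. With only the arrays compared, 0 target genes, 0 pathway genes and 0 probes were called in scWAT, 28 probes in BAT, and 0 target genes and 3920 probes between WT depots. Without the 5 arrays with skeletal muscle markers, 3585 probes were called in scWAT, 0 in BAT, 1 for the difference of effects, 2362 probes and 0 target genes between WT depots, and 1 probe between Lr11-/- depots, with a median of 0.85.

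Leaving out 1 array at a time gave, between genotypes in scWAT, 0 to 2 target genes, 0 to 12 pathway genes, 3 to 6372 probes and a median of -0.996 to -0.483. In BAT it gave 0 to 19 probes and a median of -0.45 to -0.20, with 0 target genes and 0 pathway genes throughout. The difference of effects gave 0 to 1 target genes, 0 to 1193 probes and a median of -0.65 to -0.20. Between WT depots there were 0 to 2 target genes, 3276 to 10230 probes and a median of -0.13 to 0.35, and between Lr11-/- depots 0 target genes, 5 to 53 probes and a median of 0.35 to 0.67.

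The changes of sign were as follows. In scWAT, Id3 was at -0.16 with quantile normalization, -0.19 with no scaling, -0.17 with normexp, and -0.19 to 0.47 with 1 array left out. Atoh8 was at -0.13 with no scaling, -0.15 on the second series and -0.12 to 0.48 with 1 array left out. In BAT, Hey1 was at -0.065 to 0.25 with 1 array left out and -0.20 without the 5 arrays with muscle markers. The difference of effects for Smad6 ran from -0.68 to 0.12 with 1 array left out. Between WT depots, Id2 was at -0.21 with no scaling, -0.018 with normexp, -0.59 without the 5 arrays and -0.40 to 0.49 with 1 array left out. Smad6 was at -0.19 with no scaling and -0.26 to 0.54 with 1 array left out. Hey1 was at 0.042 with the slide as a block, 0.25 on the second series and -0.37 to 0.21 with 1 array left out. Between Lr11-/- depots, Id4 was at 0.049 with the slide as a block.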
